A study of Mus musculus with 12 samples.

Results

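The loss of αβ T cells was examined in mouse back skin under the carcinogen DMBA, by setting 3 RNA sequencing libraries of Tcrb-/- mice against 3 libraries of WT mice. These 6 of the 12 libraries in the series were chosen by their titles, with Tcrb-/- mice that received transferred regulatory T cells (Treg) left out of the comparison. PolyA RNA was taken from whole back skin biopsies, and the deposited values are estimated reads and TPM per transcript. The other 6 libraries were 3 of untreated WT skin (UT WT) and 3 of Tcrb-/- + Treg skin under DMBA. They shared the estimate of spread, the scaling and the filter on reads, and are otherwise named only where they bear on a result.

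Tcrb-/- mice carried the null allele on the FVB/N background after more than 10 backcrosses, and WT mice were FVB. Both groups were given DMBA on the shaved back once weekly for 6 weeks (200 ng in the deposited description, with other doses in the study's methods), and female mice of at least 7 weeks of age were used. Control mice were purchased or were littermates, and the sources do not say which applied to these libraries, so genotype and colony cannot be told apart. The treatment entry of the 3 WT DMBA libraries reads naïve although their titles say DMBA, and they were grouped by title. Nothing in the sources says that each library is from a separate mouse, and p values therefore describe differences beyond library-to-library variation, which may be technical.

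The T cell receptor of αβ T cells is a pair of an α and a β chain, and Tcrb encodes the β chain. Without it αβ T cells, among them CD4+ helper cells, CD8+ cytotoxic cells and most Tregs, do not complete their development in the thymus, whereas γδ T cells, which are plentiful in mouse epidermis, do. DMBA, a polycyclic aromatic hydrocarbon, is turned by enzymes of skin cells into a form that binds DNA. Whole skin is mostly epidermis, hair follicles, dermis and fat, and T cells are a small part of it.

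The transcripts are listed by identifiers of the FVB/NJ strain, and no table at hand pairs these with genes, so that neither Tcrb itself, nor markers of T cells or skin, nor sequences could be looked up. The genotype was therefore not checked in the RNA, and transcripts are described by identifier, length and values. Identifiers that follow each other in number are called neighbours here, without knowledge of whether they belong to 1 gene.

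Estimated reads summed to 18179731, 17312566 and 22111027 in WT DMBA replicates 1 to 3 and to 21994003, 20325556 and 22781496 in Tcrb-/- replicates 1 to 3. No pair of replicates agreed within counting noise, so that none was counted as 1 sample (chi-square divided by the number of transcripts was 21.8 to 80.8, against about 1 for sampling alone). Replicate 1 of Tcrb-/- stood apart. As a share of all TPM, it differed by 15.9% and 16.6% from the other replicates of its own group and by 17.4% to 18.8% from the WT DMBA libraries. Replicates 2 and 3 of Tcrb-/- differed by 9.11% from each other, the WT DMBA libraries by 8.03% to 11.2% among themselves, and the 6 pairs between groups without replicate 1 by 8.43% to 14.6%. The smallest of these between-group differences, between Tcrb-/- replicate 3 and WT DMBA replicate 2, was thus within the range found among WT DMBA libraries.

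**Figure D1:**
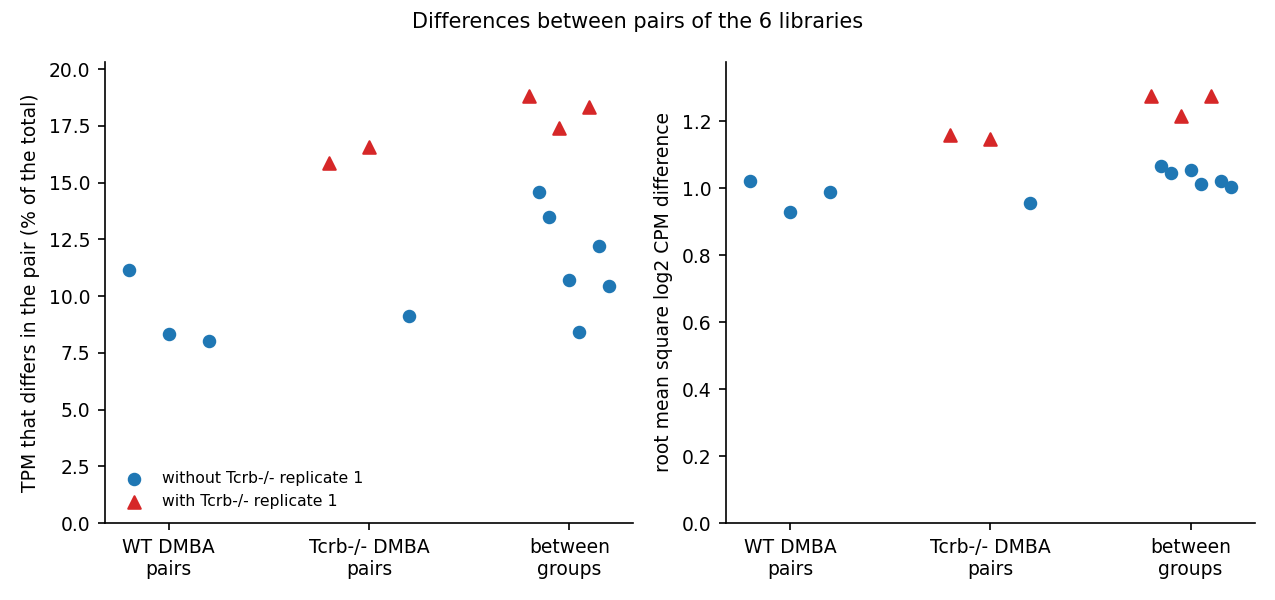
Differences between each pair of the 6 libraries, as the share of TPM that differs (left, % of the total) and as the root mean square difference of log2(CPM + 0.5) over 26982 transcripts with a mean of at least 1 CPM (right). Each point is 1 pair, and the red triangles are the 5 pairs that hold Tcrb-/- replicate 1, all above every pair without it in both panels.

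In Tcrb-/- skin, a set of abundant transcripts was higher in all 3 libraries than in any WT DMBA library, by a fold that differed widely between replicates. Among transcripts with a mean of over 100 CPM (estimated reads per 1e+06, scaled by TMM, which sets libraries to a common level), DESeq2 called 31 higher and 2 lower of 1856, against 0.455% higher and 0.264% lower of all 54539 transcripts tested. Of the 54539, 21802 got no adjusted p from DESeq2 and could not be called. The shares over all transcripts are therefore lower than those over transcripts that could be called. For 20 of the 31 the edgeR log2 fold change was 5.14 to 5.83, with a standard error of 0.967 to 1.52. Their median level was 819 CPM in replicate 1, 122 CPM in replicate 2 and 53.9 CPM in replicate 3 of Tcrb-/-, against 4.75, 13.7 and 2.60 CPM in WT DMBA replicates 1 to 3. All 20 were without overlap higher, as were 6.36% of all transcripts tested, and all 20 were highest in replicate 1, where they reached 11.7 to 21.2 times the level of replicate 3.

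None of these 20 transcripts passed the main test, with edgeR adjusted p values of 0.279 to 0.430. With replicate 1 set aside, the mean of replicates 2 and 3 was still 5.99 to 25.3 times that of WT DMBA (median 11.8). WT DMBA replicate 2 was the highest of its group for 19 of the 20. The same libraries were thus high for nearly all of these transcripts within each genotype. They were chosen after their values were seen, so these values are a description without a test.

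The most abundant of the 20, 2185 nt long, lies 8 numbers below MGP_FVBNJ_T0042430.1. It had 1999, 3530 and 805 estimated reads in the WT DMBA libraries and 204596, 60772 and 15852 in the Tcrb-/- libraries. The lowest Tcrb-/- library was above the highest WT DMBA library, and the Tcrb-/- libraries spanned a wider range than those of WT DMBA (edgeR log2 fold change 5.34, standard error 1.09, adjusted p = 0.309). Of the 20 transcripts, 17 lie within 10 identifier numbers of another of them, and 14 within 2. All 20 were also without overlap higher in the 3 Tcrb-/- + Treg libraries, at median levels of 663, 997 and 147 CPM, than in the 3 UT WT libraries, at 0.527, 0.119 and 0.190 CPM, which held for 13.3% of all transcripts tested. In the values that chose them, these libraries had no part except in the estimate of spread, the scaling and the filter on reads.

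The other 11 of the 31 rose less, by a log2 fold change of 1.15 to 3.64 (standard error 0.226 to 0.785, edgeR adjusted p = 0.214 to 0.385), and were more even. Their median level was 647, 347 and 256 CPM in Tcrb-/- replicates 1 to 3 and 63.1, 134 and 88.9 CPM in WT DMBA. None of the 11 overlapped between the groups, 7 were highest in replicate 1, and the mean of replicates 2 and 3 was 1.71 to 7.34 times that of WT DMBA. For none of the 31 were all estimates whole numbers, so each shares reads with other transcripts.

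**Figure D2:**
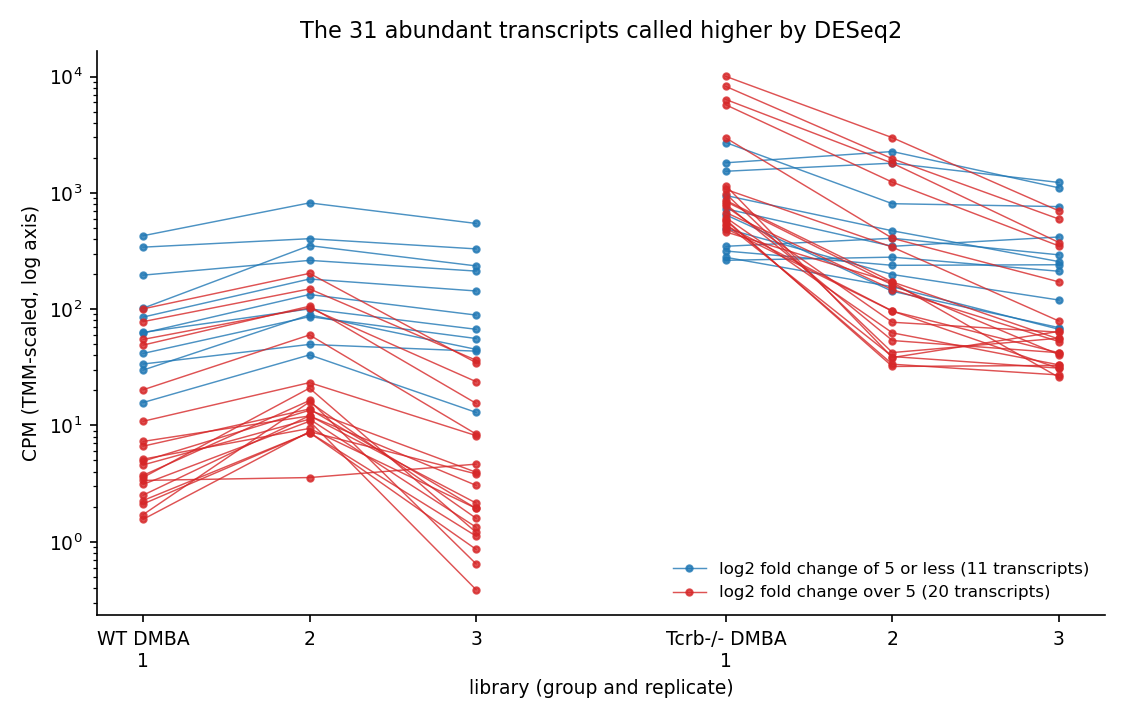
CPM (TMM-scaled, log axis) of the 31 transcripts with a mean of over 100 CPM that DESeq2 called higher in Tcrb-/-, in the 3 WT DMBA and 3 Tcrb-/- DMBA libraries. Each line joins the values of 1 transcript within a group, and replicates have no order. The 20 transcripts with an edgeR log2 fold change of over 5 (red) are highest in Tcrb-/- replicate 1, while the other 11 (blue) vary less between replicates.

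Over all transcripts, few differences passed the thresholds with edgeR, and more did with DESeq2. Of 54539 transcripts whose reads over the 12 libraries came to 10 or more, edgeR's quasi-likelihood test called 2 (0.00367%) at an adjusted p under 0.01 and a fold change above 2, both lower in Tcrb-/-, and 3656 had an unadjusted p under 0.05, 2015 higher and 1641 lower. DESeq2, at the same thresholds, called 248 higher (0.455%) and 144 lower (0.264%), among them the 2. It gave no adjusted p to 21802 of the 54539, which could therefore not be called. limma on log2(TPM + 0.5) called 3 of 40759 (0.00736%), 1 higher and 2 lower, with 4812 at an unadjusted p under 0.05. On that scale the median over all transcripts was a log2 fold change of -0.17, against 0 after TMM scaling, and of the 4812 transcripts 1149 were higher and 3663 lower. The direction of small differences therefore depends on the scaling, and is given here relative to the TMM scale.

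Without Tcrb-/- replicate 1, edgeR called 3, all lower, and DESeq2 called 116 higher and 166 lower, so that the excess of higher over lower transcripts turned. It also turned without Tcrb-/- replicate 2 (213 higher, 288 lower). Without any WT DMBA library DESeq2 called more higher than lower, with 240 to 354 higher and 76 to 109 lower. Of the 392 in both directions, 186 were still called without replicate 1, and 217 to 291 with any other of the 6 libraries left out.

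**Figure D3:**
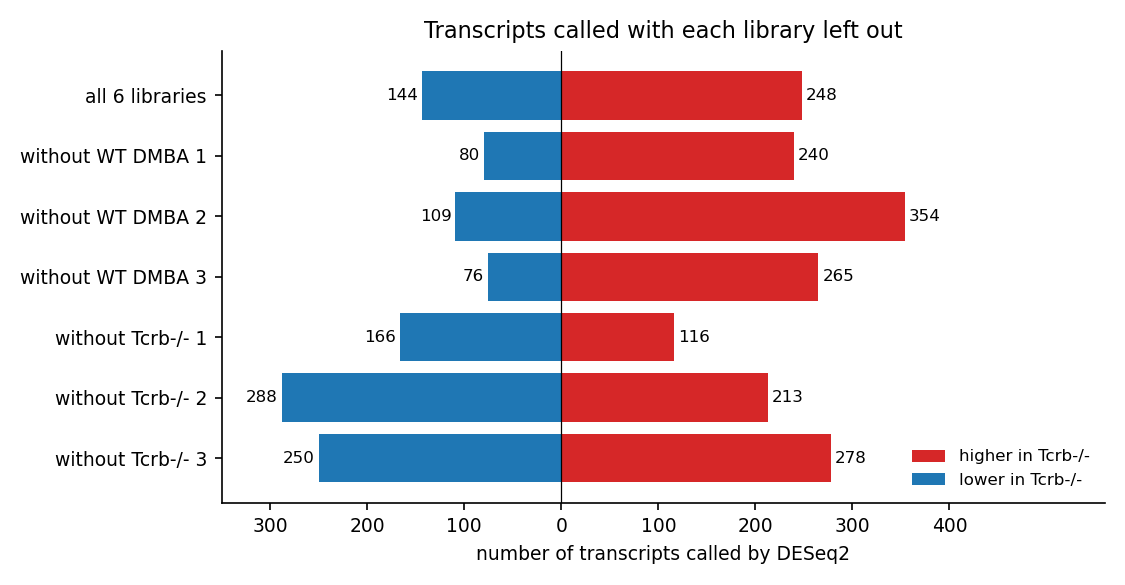
Number of transcripts called by DESeq2 as higher (red, to the right) or lower (blue, to the left) in Tcrb-/- than in WT DMBA, with all 6 libraries and with each left out in turn. More are higher than lower with all libraries (248 against 144), and fewer without Tcrb-/- replicate 1 (116 against 166) or replicate 2 (213 against 288).

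All 3 Tcrb-/- libraries were above all 3 WT DMBA libraries for 3468 transcripts (6.36%) and below for 4118 (7.55%) on TMM-scaled CPM. On plain CPM, scaled by the library total alone, the numbers were 2494 (4.57%) and 5395 (9.89%), so that the share of higher ones among them was 45.7% on the first scale and 31.6% on the second. Of those DESeq2 called, 175 of 248 higher and 83 of 144 lower transcripts did not overlap on the TMM scale. All 52 lower transcripts with reads in both groups were without overlap, so that the overlaps were among the 92 at 0 in every Tcrb-/- library.

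The precision of a difference followed the level of the transcript. Under 1 CPM (27617 transcripts), 50.1% differed over 2-fold in either direction, but the median standard error of the log2 fold change was 1.84. Over 100 CPM (1856 transcripts), these were 2.75% and 0.14, and 22.7% had an unadjusted p under 0.05 by edgeR, against 3.47% of those under 1 CPM. Among the 422 abundant transcripts with such a p, 305 were higher and 117 lower. The SD of log2 CPM between replicates was larger in Tcrb-/- than in WT DMBA for 72.0% of transcripts over 100 CPM (median 0.188 against 0.116) and for 47.0% of those under 1 CPM. Without replicate 1 the median SD of Tcrb-/- over 100 CPM was 0.0919, from 2 libraries. An SD of 2 libraries tends to be smaller than an SD of 3, so this value cannot be ranked against that of WT DMBA.

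Over transcripts with a mean of at least 1 CPM, the median absolute log2 difference between Tcrb-/- replicates was 0.27 in the closest pair and 0.41 in the farthest, against 0.25 to 0.29 in WT DMBA. In root mean square log2 CPM, Tcrb-/- replicate 1 lay 1.12 from the mean of WT DMBA and replicates 2 and 3 lay 0.882 and 0.850. Each WT DMBA library lay 0.812 to 0.890 from the mean of the other 2 WT DMBA libraries. A mean of 2 libraries is less exact than a mean of 3, which makes these distances somewhat larger, so the 2 kinds are not fully alike. The mean distance of Tcrb-/-, 0.951 ± 0.148 (SD, n = 3), exceeded that of WT DMBA, 0.848 ± 0.0395 (SD, n = 3), by less than the spread (exact two-sided permutation p = 0.45, smallest possible 0.05). Without replicate 1 the difference was 0.018. In TPM, by contrast, pairs of libraries from different groups differed by 2.31 percentage points more than pairs within a group (exact permutation p = 0.1, the lowest this design allows), and by 1.40 to 3.55 points more with each library left out in turn. This measure was not among the library values planned.

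**Figure D4:**
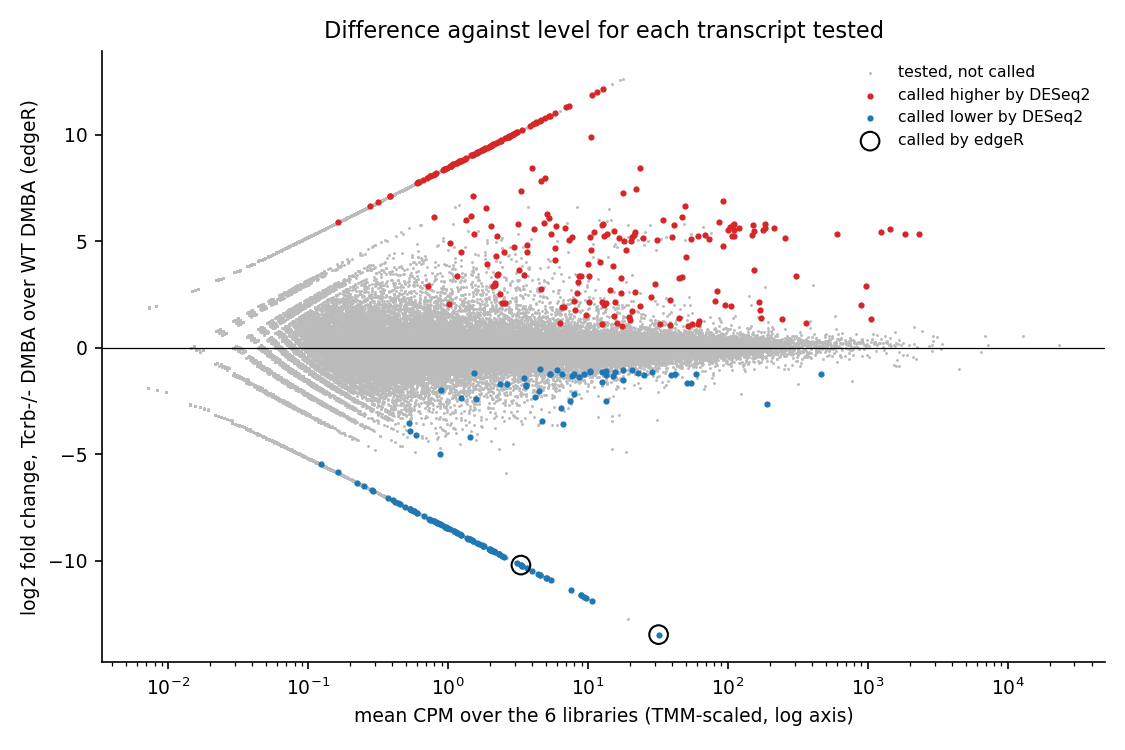
Log2 fold change of Tcrb-/- DMBA over WT DMBA (y axis, edgeR) against mean CPM over the 6 libraries (x axis, log) for each transcript tested. Grey points were not called, red and blue points were called higher (248) and lower (144) by DESeq2, and black circles mark the 2 called by edgeR. The points on the slanting outer edges are transcripts at 0 in every library of 1 group, whose fitted fold change is no bound.

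The make-up of the RNA as a whole was compared by 3 values per library, of which the share of the 200 most abundant transcripts was not among those planned. The number of transcripts with reads was 44409, 42381 and 44718 in WT DMBA and 41692, 44978 and 44058 in Tcrb-/- (exact two-sided permutation p = 0.7, smallest possible 0.1). The 200 most abundant transcripts of each library held 37.0%, 41.6% and 39.1% of TPM in WT DMBA and 41.8%, 42.0% and 41.7% in Tcrb-/-. Here the groups did not overlap, with 39.2% ± 2.31 and 41.8% ± 0.183 (SD, n = 3 each), although Tcrb-/- replicate 3 exceeded WT DMBA replicate 2 by little (exact permutation test, two-sided, p = 0.1, which is the lowest this design allows). The 20 most abundant held 12.1% ± 1.32 and 13.1% ± 1.67 (exact permutation p = 0.5, n = 3 each).

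Of the 20 transcripts with the highest mean TPM over the 6 libraries, none passed the thresholds with edgeR or DESeq2. Their log2 fold changes ran from -0.58 (standard error 0.10) to 1.5 (standard error 0.86), and 3 of the 20 did not overlap between the groups, where 6.36% and 7.55% of all transcripts were without overlap higher and lower. The transcript at -0.58, 859 nt long, had a mean TPM of 4971 in WT DMBA and 2950 in Tcrb-/- (edgeR adjusted p = 0.279). The largest difference, in a transcript of 388 nt with a mean TPM of 2055 in WT DMBA and 5818 in Tcrb-/-, was also the one with the widest error.

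Together, the 248 transcripts called higher took 0.246%, 0.409% and 0.258% of the reads in WT DMBA replicates 1 to 3 and 5.96%, 2.03% and 0.978% in Tcrb-/- replicates 1 to 3. The 31 abundant ones held most of this, with 5.04%, 1.71% and 0.760% in Tcrb-/-. The 144 called lower took 0.291%, 0.201% and 0.248% in WT DMBA and 0.0571%, 0.0632% and 0.0758% in Tcrb-/-. The higher set thus differed more between Tcrb-/- replicates 1 and 3 than between replicate 3 and any WT DMBA library. The lower set was even across the Tcrb-/- libraries, but 92 of its 144 transcripts were at 0 in all of them. Its evenness therefore says little about how far these replicates agree. The sets were chosen on these values, which are therefore no test. In bulk tissue, more cells with a transcript and more RNA per cell cannot be told apart.

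Per transcript, the highest Tcrb-/- library was replicate 1 for 164 of the 248, replicate 2 for 52 and replicate 3 for 32. No such count over all transcripts tested is given here, so this cannot be read as particular to the 248. Of the 248, 90 were at 0 in every WT DMBA library, and 92 of the 144 were at 0 in every Tcrb-/- library. Whole-number estimates (tolerance 0.01) in every library were found for 19 and 7 of them, and for 3637 of all 54539 transcripts tested. On those 3637 alone DESeq2 called 32 higher and 9 lower. The transcripts called higher lay together in number more often than those called lower, 94 of 248 within 10 identifier numbers of another and 8 of 144. The higher set is larger, which by itself gives each of its transcripts more others to lie near. These counts were not tested.

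Libraries outside the comparison were set beside the called transcripts. Over all tested transcripts, every Tcrb-/- + Treg library was above every UT WT library for 7231 (13.3%) and below for 5986 (11.0%). Of the 248 called higher in Tcrb-/-, 160 (64.5%) were above in that way and 2 below. Of the 144 called lower, 52 (36.1%) were below and 8 above. These 6 libraries differ from each other in genotype, DMBA and transferred cells at once. They took part in the estimate of spread, the scaling and the filter on reads behind the calls.

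Among the transcripts that were lower, MGP_FVBNJ_T0002475.1, 641 nt long, was the most extreme. It had 1073, 1365 and 1384 estimated reads (176, 222 and 186 TPM) in WT DMBA replicates 1 to 3 and 0 in each Tcrb-/- library. The groups were far apart, and no Tcrb-/- library had a read. From 66.8 ± 10.6 CPM (SD, n = 3; for the named transcripts and their sums, CPM is per 1e+06 of the library total, without TMM), this was at least 482-fold lower, with each Tcrb-/- library set to a floor of 3 reads (edgeR adjusted p = 2.56e-05). Such a bound takes in counting error, but not that reads may have been given to other transcripts. In the libraries outside the comparison, it had 976, 1331 and 800 reads in UT WT and 20, 14 and 11 in Tcrb-/- + Treg.

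MGP_FVBNJ_T0002472.1, 3 identifier numbers away and 3787 nt long, moved the other way. It had 10, 18 and 11 reads in WT DMBA and 315, 559 and 752 in Tcrb-/- replicates 1 to 3. All Tcrb-/- libraries were above all WT DMBA libraries, and replicate 1 was the lowest of its group, unlike for the abundant transcripts above. The level was 0.696 ± 0.299 CPM in WT DMBA and 24.9 ± 9.60 CPM in Tcrb-/- (SD, n = 3 each; log2 fold change 5.24, standard error 0.52, edgeR adjusted p = 0.0159, so that it passed the thresholds of DESeq2 only). UT WT libraries, at 795, 919 and 676 reads, were nearer to Tcrb-/- than to WT DMBA, and Tcrb-/- + Treg libraries had 19, 57 and 55.

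MGP_FVBNJ_T0042430.1, 2312 nt long, was also higher in Tcrb-/-, with 359, 440 and 590 reads in WT DMBA and 3733, 3178 and 2202 in Tcrb-/-. The groups did not overlap, and the replicates of Tcrb-/- were within a narrower range than those of the transcript 8 numbers below it. The mean was 5.88 times higher, at 24.0 ± 3.69 against 141 ± 38.9 CPM (SD, n = 3 each; log2 fold change 2.66, standard error 0.35, edgeR adjusted p = 0.0935). Of its neighbours, those 4 to 8 numbers below had log2 fold changes of 3.63 to 5.93, with edgeR adjusted p values of 0.279 to 0.629, and 4 of these 5 were called higher by DESeq2. Nearer ones differed from it. The transcript directly below in number, 2930 nt long, had 154751, 49015 and 171268 reads in WT DMBA and 91472, 52202 and 41373 in Tcrb-/- and overlapped between the groups. A transcript of 2613 nt, 3 numbers below, had 9908, 4055 and 6069 in WT DMBA and 229, 776 and 2434 in Tcrb-/-, without overlap and lowest in replicate 1 (log2 fold change -2.66, standard error 0.69, edgeR adjusted p = 0.410, DESeq2 adjusted p = 0.00257). These neighbours were picked out after their values were seen.

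MGP_FVBNJ_T0050763.1, 5634 nt long, had 153, 87 and 168 reads in WT DMBA and 0 in each Tcrb-/- library, at least 50.6-fold lower than 7.01 ± 1.77 CPM (SD, n = 3; edgeR adjusted p = 0.00573, with the same floor). The call was lost with any 1 of the 6 libraries left out (adjusted p = 0.0106 to 0.0306), with the replicate number as a block (0.106) and with the 6 libraries alone (0.272). The next identifier in number, 5588 nt long, showed the reverse, with 0 reads in each WT DMBA library and 96, 98 and 120 in Tcrb-/-. Summed with the neighbours on both sides, the reads were 153, 87 and 168 in WT DMBA and 96, 98 and 120 in Tcrb-/-, and the groups overlapped. The log2 fold change was then -0.43 (standard error 0.29, edgeR adjusted p = 0.607). The loss of this transcript from Tcrb-/- skin was therefore not seen in the sum, in an analysis added after the data were seen.

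**Figure D5:**
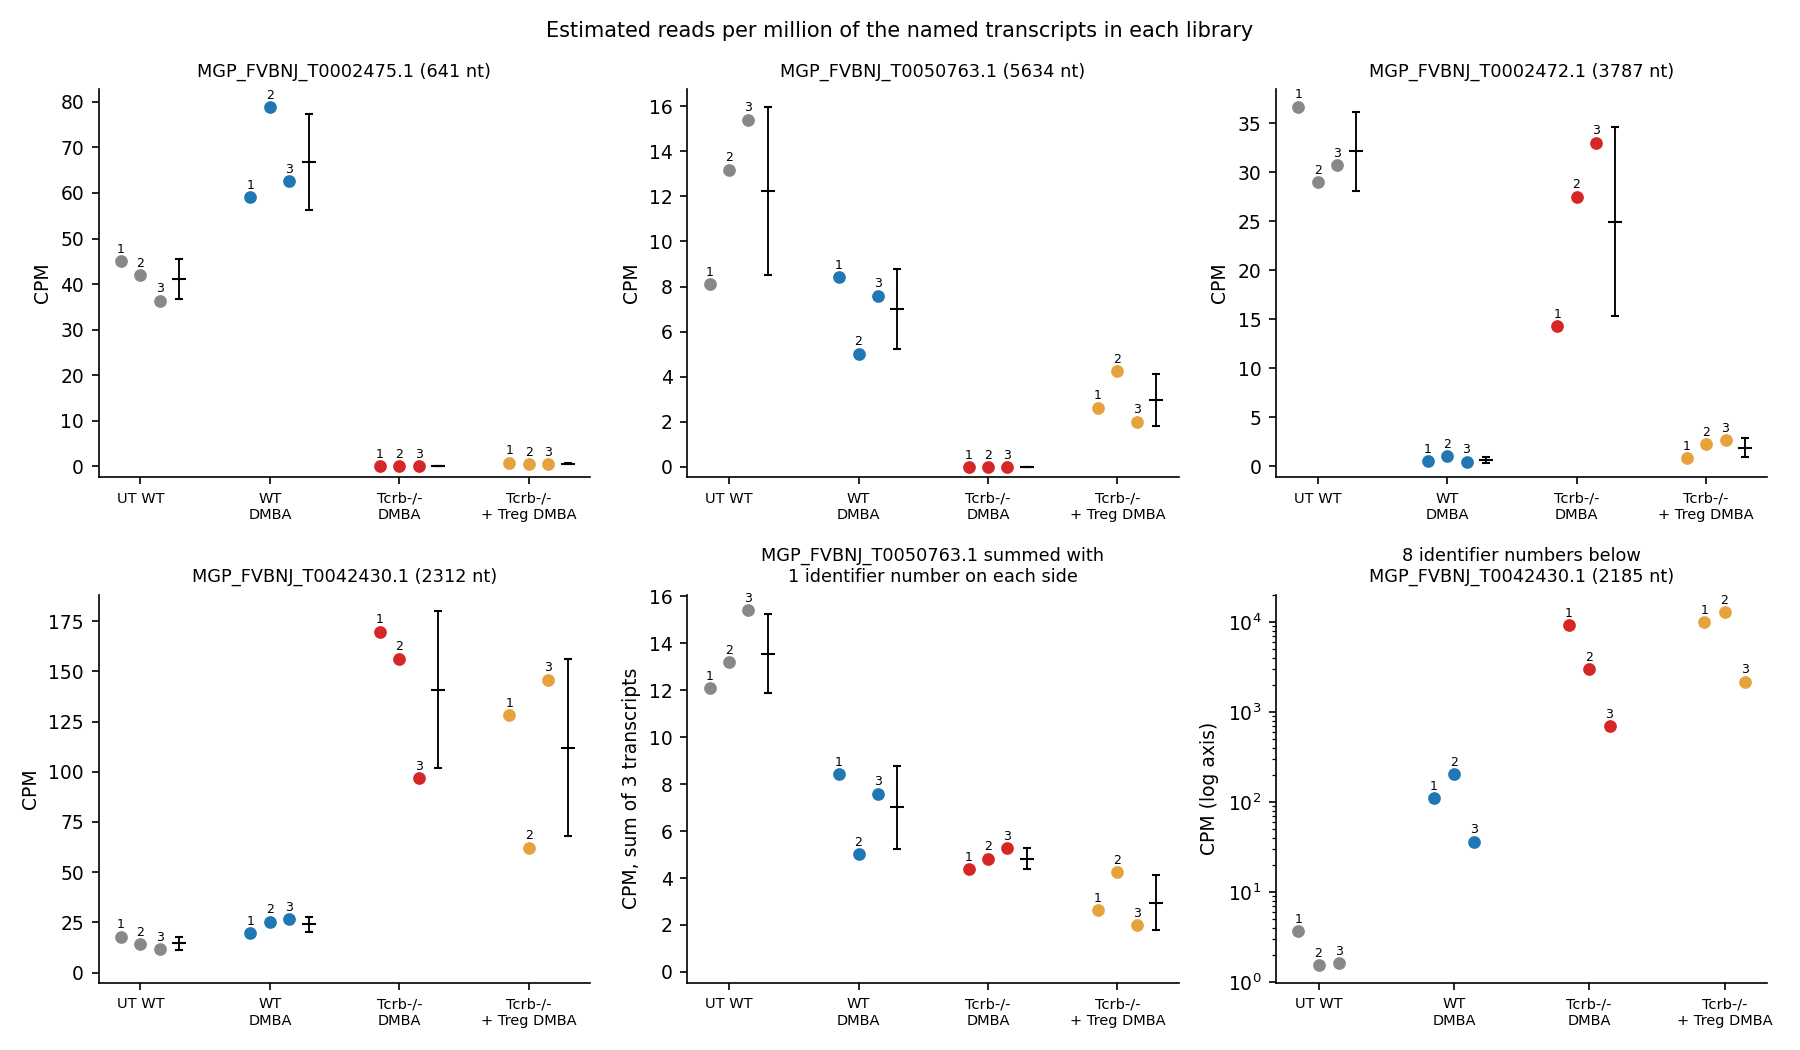
CPM (by library total, without TMM) of the 4 named transcripts, of MGP_FVBNJ_T0050763.1 summed with its neighbours on both sides in number, and of the transcript 8 numbers below MGP_FVBNJ_T0042430.1 (log axis), in the 4 groups. Points are libraries with their replicate number, and black marks are the mean ± SD (n = 3). The 2 transcripts at 0 in every Tcrb-/- library are apart from WT DMBA alone, but the sum (middle of the lower row) overlaps between these groups.

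Presence in 1 group and absence in the other was rare. Of all tested transcripts, 64 (0.117%) had 10 or more reads in all WT DMBA libraries and 0 in all Tcrb-/- libraries, and 43 (0.0788%) had the reverse. Where present, these transcripts had 10 to 1384 and 10 to 1265 reads. Of the 64, 14 had at least 10 reads in every UT WT library and 50 were at 0 in at least 1 of them. Of the 43, 41 were at 0 in at least 1 UT WT library, and 12 in all 3. Whole-number estimates throughout were found for 2 of the 64 and none of the 43, against 3637 of all 54539, and 2 of the 64 had 1 of the 43 as a direct neighbour in number.

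Summing each transcript with its neighbours was then done for every transcript tested. Alone, the 248 called higher had a median log2 ratio of mean CPM (by library total) of 4.45 and the 144 called lower of -3.66, with groups at 0 set to 3 reads per library. Summed with 1 neighbour on each side, the medians were 1.66 and -0.84, and with 2 on each side 0.90 and -0.38. Of the 248, 144 remained over 2-fold higher with 1 neighbour and 118 with 2, and of the 144, 68 and 29 remained over 2-fold lower. Of the 248, 69 lie within 2 numbers of another called higher, so that their windows can hold more than 1 called transcript, against 0 of the 144, and the lower set was less abundant (median 2.04 against 5.62 CPM). The sets were not tested against each other. Over all transcripts with a ratio, the median absolute value went from 0.48 to 0.29 and 0.23. Neighbours may be of another gene, so a smaller ratio can come from reads that are unrelated, and how much of it is reads moved between transcripts of 1 gene was not tested.

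With these sums edgeR called 5 with 1 neighbour on each side and 4 with 2, where overlapping windows can count 1 difference more than once. MGP_FVBNJ_T0002475.1 stayed among them, at a log2 fold change of -7.02 (standard error 0.66, adjusted p = 0.00858) and -4.71 (standard error 0.28, adjusted p = 0.000155). Its window of 5 held 1189, 1483 and 1523 reads in WT DMBA and 40, 73 and 57 in Tcrb-/-. The neighbours above it in this window, 11 and 9 nt long, had 0 reads in every library. Neither window reached MGP_FVBNJ_T0002472.1, 3 numbers below, which moved the other way, and a sum that holds both transcripts was not tested. In Tcrb-/- that transcript alone had 315, 559 and 752 reads, above the 40, 73 and 57 of the window of 5. A sum with both would therefore differ less between the groups than these windows do. MGP_FVBNJ_T0002472.1 kept its direction, at 2.36 (adjusted p = 0.0792) and 2.15 (adjusted p = 0.0538). For MGP_FVBNJ_T0042430.1 the sums were taken up by abundant neighbours, and the log2 fold change was -0.96 and 0.17 (adjusted p = 0.386 and 0.890).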

How the data were processed

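The authors checked reads with FastQC 0.12.1 and MultiQC 1.11, quantified them with Salmon 1.5.2 against FVB/NJ cDNA, and deposited the estimated counts per transcript used here. The deposited TPM values are relative abundances corrected by the authors for effective length. The authors' later sums over genes were not used here.

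Estimated counts were rounded, and transcripts with at least 10 reads over the 12 libraries were tested in 1 fit of the 4 groups with edgeR 4.0.16 (TMM, quasi-likelihood, Benjamini-Hochberg adjustment) in R 4.3.3. DESeq2 1.42.0 (UT WT as reference group) was run on the same counts. limma 3.58.1 was run on log2(TPM + 0.5) for transcripts with a TPM of at least 0.5 in 3 libraries. The standard error given for edgeR was obtained as log2 fold change over √F. Distances used log2(CPM + 0.5). Library values were compared by exact permutation over 3 against 3 libraries. Scripts were tested on simulated counts. Python 3.11.15 and matplotlib 3.10.9 served for tables and figures.

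Without gene symbols, at most 2 identifiers per direction were named: those edgeR called without overlap, by size of fold change, then those DESeq2 called without overlap with a mean of at least 50 reads, by edgeR p. The lists of cell type markers need gene symbols and were not used. The comparison, the members and the lists were chosen with earlier results of these data known. Alternatives were other normalizations, filters, tools, thresholds and pseudocounts, the replicate number as a block, and leaving out each library. Depth was 17312566 to 22781496 estimated reads per library, and intervals and floors cover counting error only.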

Additional observations from a re-analysis of the deposited data

How the results depend on the processing

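The edgeR count of 2 was 392 with DESeq2, 4 with limma voom, 0 with only the 6 libraries compared (3793 at an unadjusted p under 0.05; DESeq2 on those libraries called 298), 1 with the replicate block, 5 at an adjusted p under 0.05 without a minimum fold, and 5 and 4 for sums with 1 and 2 neighbours on each side. It was 1 to 5 with 1 library left out: 1 without WT DMBA replicate 1 or 2, 5 without WT DMBA replicate 3, and 3 without Tcrb-/- replicate 1. On whole-number transcripts alone it was 2, both higher and neither of the 2 above. The DESeq2 count of 392 was 1669 with the replicate block, 1029 at an adjusted p under 0.05 without a minimum fold, 41 on whole-number transcripts, 282 to 528 with 1 library left out, and 383 to 419 with another reference group, an alternative chosen after seeing the data. The limma count of 3 on TPM was 7 with a filter on summed reads alone, 1 with only the 6 libraries, 13 at an adjusted p under 0.05 without a minimum fold, and 2 to 11 with 1 library left out (11 without Tcrb-/- replicate 3).

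MGP_FVBNJ_T0002475.1 missed the thresholds in 1 of 14 edgeR refits, that of the 6 libraries (adjusted p = 0.0797), and MGP_FVBNJ_T0050763.1 in 8 of 14 (adjusted p up to 0.272), each library left out among them. MGP_FVBNJ_T0002472.1 passed in 1 of 14 (adjusted p = 0.00741 to 0.175) and MGP_FVBNJ_T0042430.1 in 0 of 14 (0.0311 to 0.317). All 4 kept their direction except MGP_FVBNJ_T0042430.1 summed with 1 neighbour on each side (-0.96).

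With 1 library left out, the difference in transcripts with reads (-260) was -988 to 682, that in distance from the WT DMBA centre (0.103) -0.033 to 0.154, that in TPM of the 20 most abundant 0.308 to 1.94 percentage points and that of the 200 most abundant 1.49 to 3.80. Deviations of same-numbered libraries from their group means correlated at -0.00175, -0.0632 and 0.0362 between WT DMBA and Tcrb-/-. No pairing by number was seen in these values, although they cannot settle whether libraries were handled together. The replicate block gave 1 call by edgeR, 1669 by DESeq2 and 2 by limma on TPM. With the block DESeq2 gave every transcript tested an adjusted p, whereas the main fit gave none to 21802. The cause of these changes was not tested. Reads that Salmon divided between transcripts limit what 3 libraries per group can show for single transcripts. Under 1 CPM the median standard error was 1.84 (log2).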

Other observations

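In the transcripts called higher in Tcrb-/-, replicate 1 of Tcrb-/- lay within the range of the Tcrb-/- + Treg libraries, near 2 of the 3. The 248 took 5.96% of its reads and 5.12%, 6.64% and 1.84% of those of Tcrb-/- + Treg replicates 1 to 3, against 2.03% and 0.978% in Tcrb-/- replicates 2 and 3 and 0.229% to 0.236% in UT WT. Replicate 3 of Tcrb-/- + Treg was nearest to replicate 2 of Tcrb-/-. The share of these transcripts therefore did not part the 2 labelled Tcrb-/- groups, which overlapped, while no library of either overlapped with WT DMBA or UT WT. The set was chosen on the Tcrb-/- and WT DMBA values.

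In UT WT the 20 most strongly raised abundant transcripts were at median levels of 0.527, 0.119 and 0.190 CPM, below the 4.75, 13.7 and 2.60 CPM of WT DMBA. These transcripts were chosen for the difference between Tcrb-/- and WT DMBA. UT WT had no part in that choice except in the estimate of spread, the scaling and the filter on reads. The 144 transcripts called lower took 0.316% to 0.332% of the reads in UT WT, above the 0.201% to 0.291% of WT DMBA, and 0.0885% to 0.121% in Tcrb-/- + Treg, between Tcrb-/- and WT DMBA. The 144 were chosen for being lower in Tcrb-/- than in WT DMBA. Another group can fall between these by that choice alone, so its place is no test.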
